A study of Mus musculus with 9 samples.

Results

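The genes of the synaptic vesicle release machinery were followed in RNA-seq libraries from newborn mouse cortex. Members were chosen by gene symbol alone, from 12 families: the syntaxins (Stx), synaptobrevins (Vamp), the Snap proteins, the syntaxin-binding proteins (Stxbp), Unc13, Rims, the synaptotagmins (Syt), the complexins Cplx1 and Cplx2, the synapsins (Syn), Sv2, synaptophysin (Syp) and synaptoporin (Synpr). This gave 64 of the 24624 genes in the table. Of these, 62 had a mean of at least 10 over the 9 libraries and were tested with 16197 genes in all; Vamp5 and Syt15 were below that level, with means of 3.80 and 4.22 in Fezf2+/+, and were not tested.

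Each library was made from poly(A) RNA of the pair of cortical hemispheres of 1 mouse at P0, the day of birth. All mice came from crosses of Fezf2+/- mice with Fezf2+/- mice that carried the Fezf2-EnR transgene, in litters m1, m2 and m3. The groups were Fezf2+/+ (n = 3; 2 mice of m1 and 1 of m2), Fezf2-/- (n = 4; 2 of m1 and 2 of m3), which lack the zinc-finger transcription factor FEZF2 in all cells and carry a PLAP reporter in the mutant allele, and Fezf2-/-; Fezf2-EnR (n = 2; 1 of m2 and 1 of m3). Fezf2-EnR is a bacterial artificial chromosome transgene, carried as 1 mouse line, that expresses the engrailed repressor domain joined to the FEZF2 DNA-binding domain from the Fezf2 start codon, so it is read under Fezf2 regulatory sequence. The study asked with it whether a repressor form of FEZF2 can stand in for the lost protein. The Fezf2 row itself was at 979 to 1232 in Fezf2+/+, 193 to 242 in Fezf2-/- and 907 to 1001 in Fezf2-/-; Fezf2-EnR, where the transgene carries part of the same sequence and the row cannot check the mutant allele.

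Neurons release transmitter when calcium enters the nerve terminal and a docked vesicle fuses with the plasma membrane. Fusion is driven by SNARE proteins: a synaptobrevin on the vesicle pairs with a syntaxin and SNAP-25 on the plasma membrane. Munc13 proteins (Unc13) open syntaxin and so prime vesicles, RIM proteins (Rims) tether vesicles and calcium channels at the active zone, complexins clamp and assist the assembled SNAREs, and synaptotagmins of the Syt1 type sense calcium. Synapsins gather vesicles into a reserve pool, while Sv2, synaptophysin and synaptoporin sit in the vesicle membrane. Several syntaxins, Vamp and Snap proteins serve fusion steps elsewhere in all cells. At birth the cortex has formed its neurons but few of its synapses.

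With limma, only Syt6 and Unc13c passed the test of Fezf2-/- against Fezf2+/+, in opposite directions, and both passed it again, with the direction turned, in Fezf2-/-; Fezf2-EnR against Fezf2-/-, where each call was lost under some of the other fits. The sequences around their transcription starts are therefore shown, from 250 bases before to 50 bases after a RefSeq start in GRCm38.p6, the assembly behind mm10. Syt6 has 3 such windows on the plus strand of chromosome 3, of which the first, chr3:103574995-103575294, is given. The Unc13c window is chr9:73968988-73969287 on the minus strand. Both are written along the direction of transcription, and capitals mark GC boxes (GGGCGG) and CCAAT boxes (CCAAT) on either strand.
Syt6: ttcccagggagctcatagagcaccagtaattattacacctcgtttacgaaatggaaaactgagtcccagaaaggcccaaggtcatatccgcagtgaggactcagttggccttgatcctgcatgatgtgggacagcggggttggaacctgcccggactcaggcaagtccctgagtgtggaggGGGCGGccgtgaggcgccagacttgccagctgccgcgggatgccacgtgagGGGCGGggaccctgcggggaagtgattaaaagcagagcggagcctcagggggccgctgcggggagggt
Unc13c: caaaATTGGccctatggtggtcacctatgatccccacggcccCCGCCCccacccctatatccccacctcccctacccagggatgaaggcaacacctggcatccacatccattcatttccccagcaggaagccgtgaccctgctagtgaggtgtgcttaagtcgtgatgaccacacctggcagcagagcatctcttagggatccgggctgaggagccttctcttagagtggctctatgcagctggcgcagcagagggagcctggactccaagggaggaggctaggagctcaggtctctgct

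The Syt6 window held 2 GC boxes and no CCAAT box, and the Unc13c window held 1 of each. Neither held the TATA box letters TATAAA or the cyclic AMP response element letters TGACGTCA, and each held 3 E-boxes (CANNTG), which are not in capitals. They were 61% and 59.3% G or C. For the release machinery as a whole, 50 of the 64 members had entries, with 64 windows, some of which overlap. A GC box stood in 70.3% of these windows, against 35.7% of all 32851 windows in the RefSeq table, and their median G or C content was 62.8%, against 52.7% in all. CCAAT stood in 29.7% against 37.4%, TATAAA in 6.25% against 13.6%, TGACGTCA in 3.12% against 1.79%, and CANNTG in 68.8% against 72.3%. These are matches of letters, counted on both strands, and describe the windows only.

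Values are the authors' normalized counts, in which the reads per gene were divided by a size factor for the library. The libraries held 18716575 to 25127623 reads assigned to genes. Pearson's r between libraries of 1 group, on log2 values over genes, lay between 0.985 and 0.993. None of the 7 markers of cortical glutamatergic neurons was below 10 in all libraries, with summed values of 44911 to 55817, and the choroid plexus markers Folr1 and Ttr were below 10 throughout. By Xist and Ddx3y, 1 Fezf2+/+ library (bc201) and both Fezf2-/-; Fezf2-EnR libraries came from females and the other 6, all 4 Fezf2-/- libraries among them, from males. Sex was not determined for mice of this age in the study, and Fezf2-/- and Fezf2-/-; Fezf2-EnR share no sex, so that genotype and sex cannot be told apart between them other than through the Fezf2+/+ group. Library bc209, the Fezf2-/-; Fezf2-EnR library of m2, was the lowest of the 9 in 29 of the 62 members tested, whereas it was the lowest in 21.3% of all genes tested. Library bc207, a Fezf2-/- library of m3, was the highest in 26 of the 62 members, and in 13% of all genes. In bulk tissue, fewer cells of a type and less RNA per cell cannot be told apart.

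In the Fezf2+/+ cortex, most parts of the release apparatus were already expressed. Per kilobase of exon (union of the exons in the GENCODE M21 annotation), Syt4 stood highest, at 3717 ± 32.1 normalized counts per kb (SD, n = 3). Syt4 is a synaptotagmin that does not sense calcium in the way of Syt1. Cplx2, a complexin abundant in forebrain excitatory neurons, came next at 3407 ± 88.5 per kb. Vamp2, the main synaptobrevin of the brain, stood at 2574 ± 36.7 per kb. Stx1a, a syntaxin of fusion at the synapse, stood at 998 ± 46.1 per kb. Snap25 stood at 745 ± 38.7 per kb, below Snap47, a widely expressed relative without a membrane anchor, at 1960 ± 63.5 per kb. The calcium sensor Syt1 stood at 1192 ± 20.5 per kb, against 5.48 ± 1.70 per kb for Syt2, its counterpart at fast synapses of the hindbrain and spinal cord. Vamp1, likewise more prominent in the hindbrain and spinal cord, stood at 7.67 ± 1.19 per kb. Syt6 stood at 189 ± 26.2 per kb and Unc13c lower, at 50.1 ± 4.62 per kb.

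**Figure D1:**
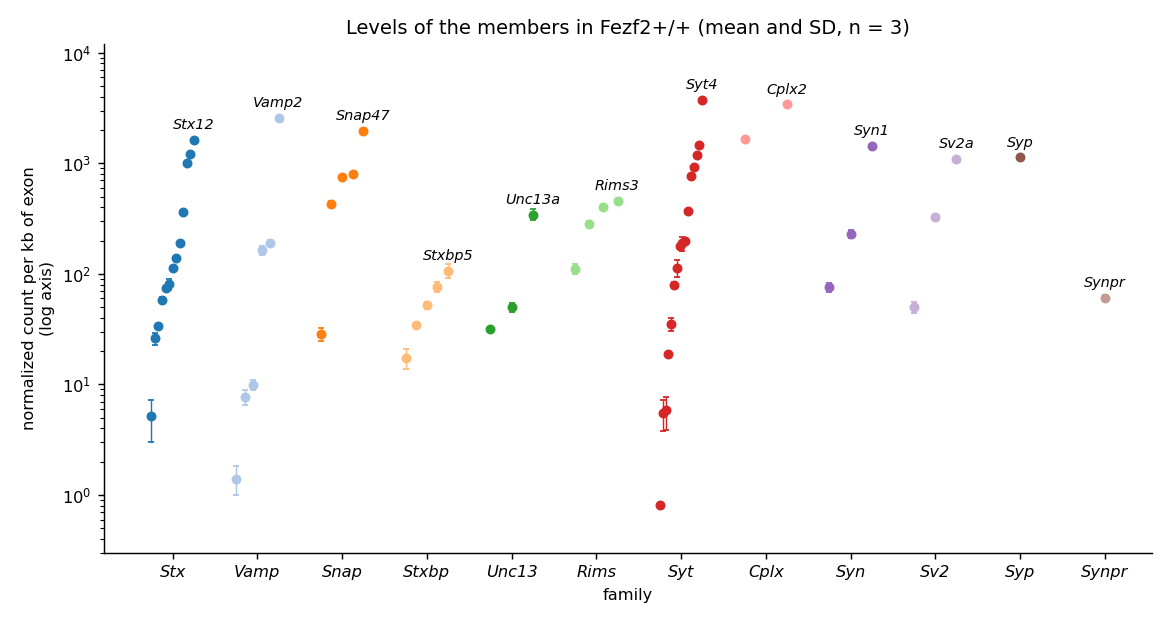
Level of the members shown in Fezf2+/+, as normalized counts per kb of exon on a log axis, by family; points are means and bars SD (n = 3), and the highest member shown of each family is named. Within the synaptotagmins the means ran from 0.817 per kb (Syt15) to 3717 per kb (Syt4).

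Syt6 is a synaptotagmin that binds calcium and forms disulfide-linked dimers, and it is best known from the fusion of the sperm acrosome. In the 3 Fezf2+/+ libraries it stood at 1266, 1066 and 965 normalized counts. The 4 Fezf2-/- libraries held 554, 362, 356 and 237. The 2 Fezf2-/-; Fezf2-EnR libraries held 909 and 955. Every Fezf2-/- library was therefore below every library of the other groups, and the Fezf2-/-; Fezf2-EnR libraries lay just under the lowest Fezf2+/+ library. Fezf2-/- held 0.331 of the Fezf2+/+ level on the log2(value + 1) scale, on which all fold changes here are given, a log2 fold change of -1.60 (SE 0.22, limma adjusted p = 0.00593 over all genes tested). In Fezf2-/-; Fezf2-EnR against Fezf2-/- it rose by a log2 fold change of 1.37 (SE 0.25, limma adjusted p = 0.0389). That call was lost with litter as a term in the fit (1.44, limma adjusted p = 0.0819), with only the 2 groups fitted (limma adjusted p = 0.0938) and in 5 of the 9 fits that left out 1 library, those without bc201, bc202, bc205, bc206 or bc209. Against Fezf2+/+ the difference was -0.23 (SE 0.26, limma adjusted p = 0.667). The antisense gene Atg4a-ps shares 505 exon bases with Syt6, 8.67% of its exons, and was at 4.37 or less in the libraries.

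Unc13c encodes Munc13-3, the priming factor known mainly from cerebellar granule cells. It stood at 480, 399 and 443 normalized counts in Fezf2+/+. The Fezf2-/- libraries held 1119, 1022, 882 and 1436. The Fezf2-/-; Fezf2-EnR libraries held 587 and 358. Every Fezf2-/- library lay above all others, and the values of the Fezf2-/-; Fezf2-EnR libraries fell on either side of those of Fezf2+/+. The log2 fold change of Fezf2-/- against Fezf2+/+ was 1.32 (SE 0.18, limma adjusted p = 0.00593), or 2.50-fold. Fezf2-/-; Fezf2-EnR against Fezf2-/- gave -1.26 (SE 0.21, limma adjusted p = 0.0268), and against Fezf2+/+ it gave 0.06 (SE 0.22, limma adjusted p = 0.904). The former was also called with litter as a term (-1.21, limma adjusted p = 0.00542), and was lost with only the 2 groups fitted (limma adjusted p = 0.0664) and in 3 of the 9 fits that left out 1 library, those without bc204, bc205 or bc209. Its paralogs overlapped between Fezf2+/+ and Fezf2-/-: Unc13a, the main Munc13 of the forebrain, was at 3808 to 4773 in Fezf2+/+, 3879 to 4806 in Fezf2-/- and 3482 to 4139 in Fezf2-/-; Fezf2-EnR, and Unc13b at 699 to 755, 729 to 810 and 781 to 799. No other gene shares exon bases with Unc13c in the annotation.

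The contrast of Fezf2-/- with the other groups was present within litters m1 and m3. In litter m1, Syt6 was at 1266 and 1066 in the Fezf2+/+ libraries and at 362 and 356 in the Fezf2-/- libraries, and Unc13c at 480 and 399 against 1022 and 882. Fitted in m1 alone, the log2 fold changes were -1.69 for Syt6 (limma adjusted p = 5.73e-05) and 1.12 for Unc13c (limma adjusted p = 0.00139). In litter m3, Syt6 was at 554 and 237 in Fezf2-/- and 909 in Fezf2-/-; Fezf2-EnR, and Unc13c at 1119 and 1436 against 587. In litter m2, Syt6 was at 965 in Fezf2+/+ and 955 in Fezf2-/-; Fezf2-EnR, and Unc13c at 443 against 358. With 1 library on a side, m2 and m3 give no test of their own. The exact two-sided permutation test of single genes over 35 splits cannot go below p = 0.0571 for 4 against 3 mice, and gave that value for Syt6 and for Unc13c. For Fezf2-/-; Fezf2-EnR against Fezf2-/-, with 15 splits, the same permutation test gave both genes p = 0.133, the lowest it can reach.

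**Figure D2:**
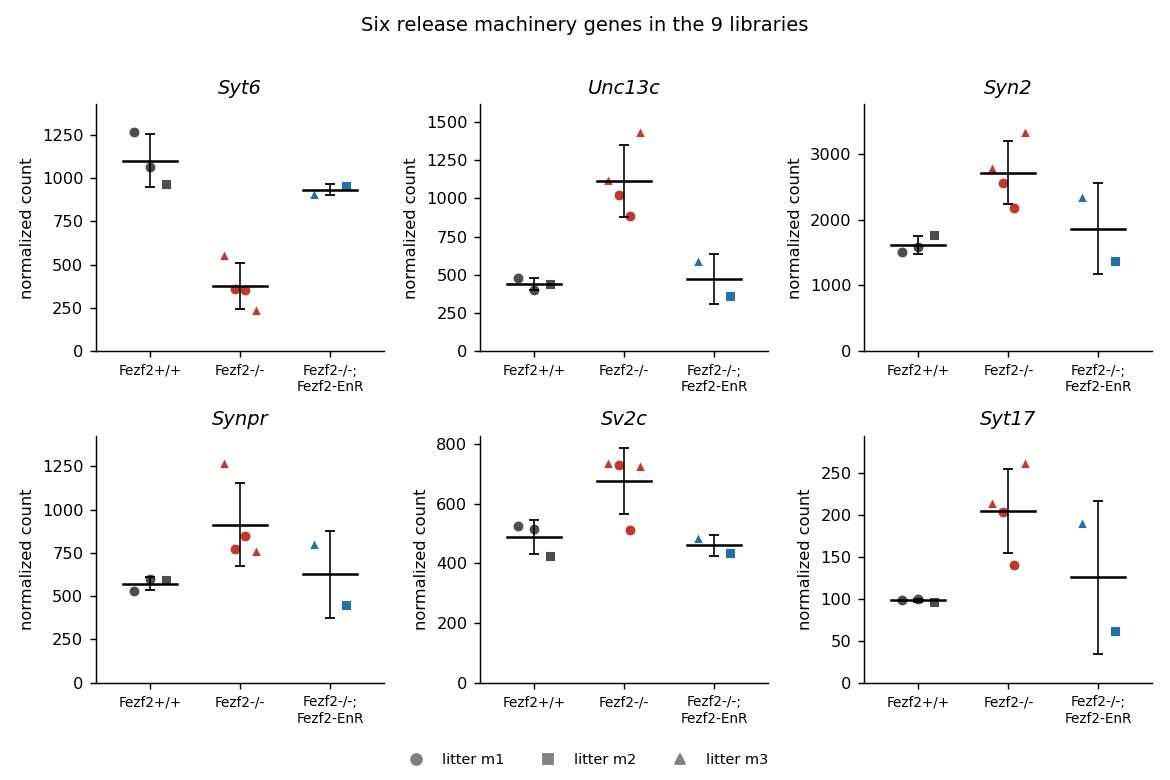
Normalized counts of Syt6, Unc13c, Syn2, Synpr, Sv2c and Syt17 in the 9 libraries, by genotype; each point is 1 mouse, its shape gives the litter, the line is the group mean and the bar its SD (n = 3, 4 and 2). Syt6 in Fezf2-/- lay between 237 and 554, below all others, and Unc13c between 882 and 1436, above all others.

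Fezf2-/- was compared with Fezf2+/+ to find which genes respond to the loss of FEZF2. The 2 members called make 3.23% of the 62 tested, and 0.858% of all genes tested were called. With edgeR the same 2 were called (0.877% of all genes), and with DESeq2 5 (1.95% of all genes), Syn2, Synpr and Syt17 added. At an unadjusted p under 0.05, 13 members stood apart (21%, against 10.8% of all genes), 9 of them higher (6.61% of all genes) and 4 lower (4.21% of all genes). The groups did not overlap in 14 members, which is 22.6% against 13% of all genes. The median log2 fold change of the members was 0.04, against 0.00 over all genes, and it fell to 0.002 with litter as a term, 0.017 in litter m1 alone and 0.015 without bc207. Of the members, 39 of 62 had a positive sign (62.9%, against 50% of all genes). Of the 62, 52 differed by less than 1.25-fold, as did 14226 of the 16197 genes tested.

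Of the members that missed the threshold, Syn2 and Sv2c had the smallest p-values, followed by Stx17, Syt17, Cplx2 and Synpr. Syn2, a synapsin, was at 1501, 1588 and 1767 in Fezf2+/+ and at 2781, 2561, 2176 and 3331 in Fezf2-/-. These groups did not overlap, and the log2 difference was 0.73 (SE 0.18), which missed the threshold with limma (adjusted p = 0.122) and passed it with DESeq2 (0.74, adjusted p = 0.00147). In Fezf2-/-; Fezf2-EnR it was at 2349 and 1369, the first among the Fezf2-/- values and the second below all Fezf2+/+ values. Its exons share 90 bases, 1.28% of their length, with Timp4 on the other strand. Syn1, on the X chromosome, was at 4609 to 4870 in Fezf2+/+, 4577 to 5740 in Fezf2-/- and 4113 to 4739 in Fezf2-/-; Fezf2-EnR. Syn3 shares 14.1% of its exon bases with Timp3, which is on the other strand and reached 1547. Syn3 was at 820 to 989, 845 to 1158 and 780 to 1024. Syn1 and Syn3 overlapped between all groups.

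Synpr, a relative of synaptophysin found in a subset of neurons, was at 529, 599 and 592 in Fezf2+/+. It was at 1268, 776, 847 and 760 in Fezf2-/- and at 804 and 450 in Fezf2-/-; Fezf2-EnR. Its log2 difference of 0.64 in Fezf2-/- (SE 0.21) missed the threshold with limma (adjusted p = 0.277) and passed it with DESeq2 (adjusted p = 0.0490). Syp itself, on the X chromosome, was at 5800 to 6039, 5781 to 6679 and 4422 to 6486 in the same order of groups. Sv2c, the Sv2 form most restricted in the brain, was at 526, 516 and 424 in Fezf2+/+ and at 735, 730, 511 and 728 in Fezf2-/-. Only library bc206 overlapped with Fezf2+/+. The log2 difference of Sv2c was 0.46 (SE 0.14, limma adjusted p = 0.226). In Fezf2-/-; Fezf2-EnR it was at 486 and 436. Sv2a, the widespread form, was at 4871 to 5300, 5199 to 5901 and 4244 to 4860, and Sv2b at 2686 to 2738, 2951 to 3621 and 2414 to 2861.

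Both complexins of the list stood lower in every Fezf2-/- library than in any Fezf2+/+ library, by differences that missed the threshold. Cplx1 was at 3591, 3572 and 3637 in Fezf2+/+ and at 3146, 3250, 3467 and 3126 in Fezf2-/-, a log2 difference of -0.15 (SE 0.06, limma adjusted p = 0.344). Cplx2 was at 16534, 17295 and 16546 in Fezf2+/+ and at 12686, 15395, 14136 and 14626 in Fezf2-/-, a log2 difference of -0.24 (SE 0.08, limma adjusted p = 0.274). In the Fezf2-/-; Fezf2-EnR libraries Cplx1 was at 3031 and 2835, below all other libraries, and Cplx2 at 14646 and 12180. Cplx3, the complexin of subplate neurons and retinal ribbon synapses, is not a member by its symbol but belongs to the same family. It was at 103, 78.9 and 114 in Fezf2+/+, at 6.03, 14.2, 15.6 and 12.5 in Fezf2-/-, and at 85.6 and 64.5 in Fezf2-/-; Fezf2-EnR.

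Among the other synaptotagmins, Syt17 was at 98.9, 99.9 and 95.9 in Fezf2+/+ and at 214, 204, 141 and 262 in Fezf2-/-. Its values did not overlap between these groups, with a log2 difference of 1.02 (SE 0.32, limma adjusted p = 0.263; DESeq2 adjusted p = 0.0332), and its Fezf2-/-; Fezf2-EnR libraries, at 190 and 61.2, lay far apart. Syt17 and Syt13 were named after their values had been seen. Syt4 was at 14453, 14346 and 14595 in Fezf2+/+ and at 11922, 12113, 13799 and 12008 in Fezf2-/-, a log2 difference of -0.22 (SE 0.09, limma adjusted p = 0.386), and at 13705 and 17824 in Fezf2-/-; Fezf2-EnR. An antisense gene, Gm26658, covers 14.5% of its exon bases. Syt1, the calcium sensor of fast release, was at 9752 to 10084 in Fezf2+/+, 10259 to 13898 in Fezf2-/- and 9221 to 10473 in Fezf2-/-; Fezf2-EnR. Syt2 was at 27.4 to 52.6, 39.6 to 68.3 and 48.8 to 65.6. Of the 8 synaptotagmins that bind calcium, 4 had a positive and 4 a negative sign, with Syt6 the single call. Of the 7 tested without calcium binding, or for which it is unsettled, 6 had a positive sign and none was called.

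None of the 14 syntaxins, 5 Vamp and 5 Snap genes tested was called in Fezf2-/- against Fezf2+/+, where 0.858% of all genes were. Every one of them was within 1.25-fold, as were most genes tested (14226 of 16197). Of the 6 Stxbp genes none was called and 5 were within 1.25-fold. The exception, Stxbp2, which serves secretion in blood cells and epithelia, was at 226, 227 and 197 in Fezf2+/+ and at 155, 197, 200 and 108 in Fezf2-/-, a log2 difference of -0.43 (SE 0.21, limma adjusted p = 0.498) with overlap between the groups. Stxbp4 did not overlap, at 397 to 419 in Fezf2+/+ and 333 to 386 in Fezf2-/-, a log2 difference of -0.18 (SE 0.10, limma adjusted p = 0.586). Stx1a was at 2530 to 2775 in Fezf2+/+ and 2606 to 2796 in Fezf2-/-, Vamp2 at 9652 to 9923 and 9772 to 10577, and Snap25 at 4883 to 5361 and 4877 to 5552. The groups overlapped for Stx1a, Vamp2 and Snap25, as they did for Snap91, an endocytic adaptor of clathrin coats that shares only its name with the SNAREs, at 7190 to 7485 and 7256 to 8524. Stxbp5, tomosyn, which occupies syntaxin in place of synaptobrevin, was at 1602 to 2055 and 1667 to 2272. Vamp1 was at 65.3 to 89.6 and 77.3 to 105. The syntaxin of autophagosome fusion, Stx17, was the one with the smallest p. It was at 661, 646 and 688 in Fezf2+/+ and at 746, 784, 763 and 832 in Fezf2-/-, without overlap, a log2 difference of 0.23 (SE 0.07, limma adjusted p = 0.243). Among the active zone proteins, Rims1 was at 1958 to 2211 and 2236 to 2921, without overlap, and Rims2 at 1028 to 1285 and 975 to 1197. Rims3, a short form without the Rab-binding part, was at 3442 to 3828 and 3413 to 4004.

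**Figure D3:**
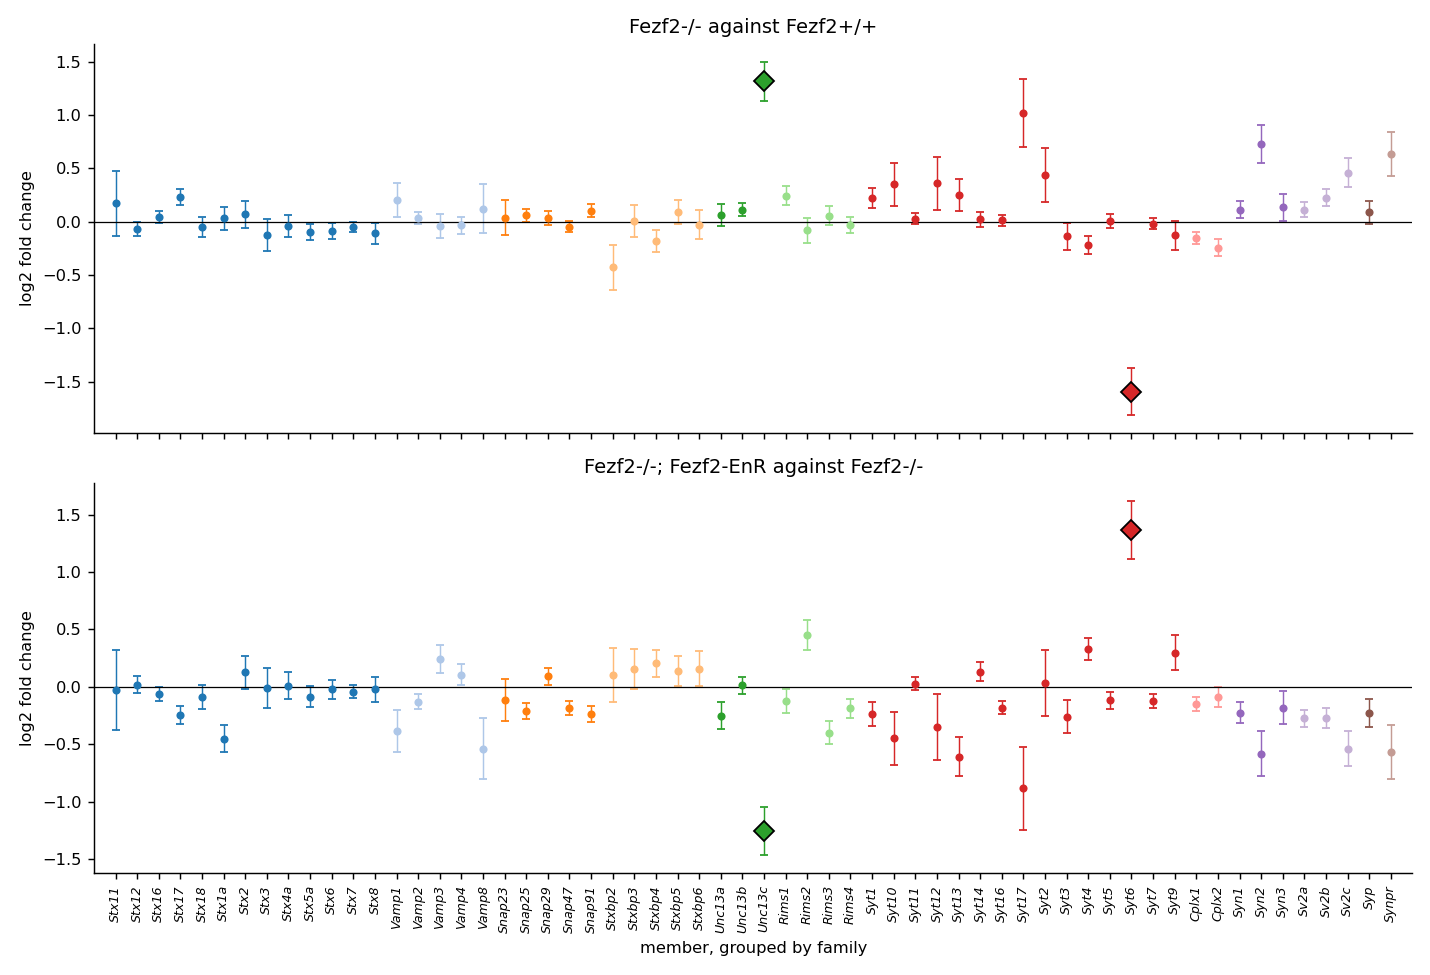
Log2 fold change with its standard error for members tested, grouped and coloured by family, in Fezf2-/- against Fezf2+/+ (top) and Fezf2-/-; Fezf2-EnR against Fezf2-/- (bottom); diamonds mark calls at a limma adjusted p under 0.05. Syt6 (-1.60 and 1.37) and Unc13c (1.32 and -1.26) are the calls, and both panels share the Fezf2-/- libraries, so that opposite signs are partly built in.

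The members were then split by where they act, with lists chosen with earlier results of these data known. Of the 24 members of the neuronal release core (among them Syt1, Syt2, Stx1a, Vamp1, Vamp2, Snap25, Stxbp5, Cplx1, Cplx2, Rims1, Rims2, the Unc13, Syn and Sv2 genes, Syp and Synpr), 21 had a positive sign in Fezf2-/- against Fezf2+/+ and 3 a negative one, Cplx1, Cplx2 and Rims2. Over all genes tested, 50% had a positive sign. Unc13c was the single call (0.858% of all genes), 9 reached an unadjusted p under 0.05 (10.8% of all genes), 7 of them higher (6.61% of all genes), and the median log2 fold change was 0.11. With litter as a term 17 of the 24 had a positive sign and the median was 0.06, and without bc207 the median was 0.07. Of the 21 syntaxins, Vamp, Snap and Stxbp genes tested that serve general membrane traffic, 8 had a positive sign, none was called and the median was -0.04. Marker genes of some cell types stood apart between the same groups. All 9 markers of GABAergic interneurons had a positive sign in Fezf2-/-, with a median log2 fold change of 0.47, 8 at an unadjusted p under 0.05 and none called, and their summed level was 8793 to 9216 in Fezf2+/+, 11580 to 12354 in Fezf2-/- and 8891 to 10039 in Fezf2-/-; Fezf2-EnR. The summed level of 8 markers of postmitotic neurons was 178401 to 182885, 165341 to 180525 and 170857 to 181762. Of the 14 lists of cell type markers, the sums of 3 did not overlap between Fezf2+/+ and Fezf2-/-: interneurons, radial glia and astrocytes (12631 to 13118, 13405 to 15827 and 14345 to 15972) and oligodendrocyte precursors (4849 to 5148, 5512 to 5780 and 5391 to 5411). The part of these cells in the result was not tested.

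**Figure D4:**
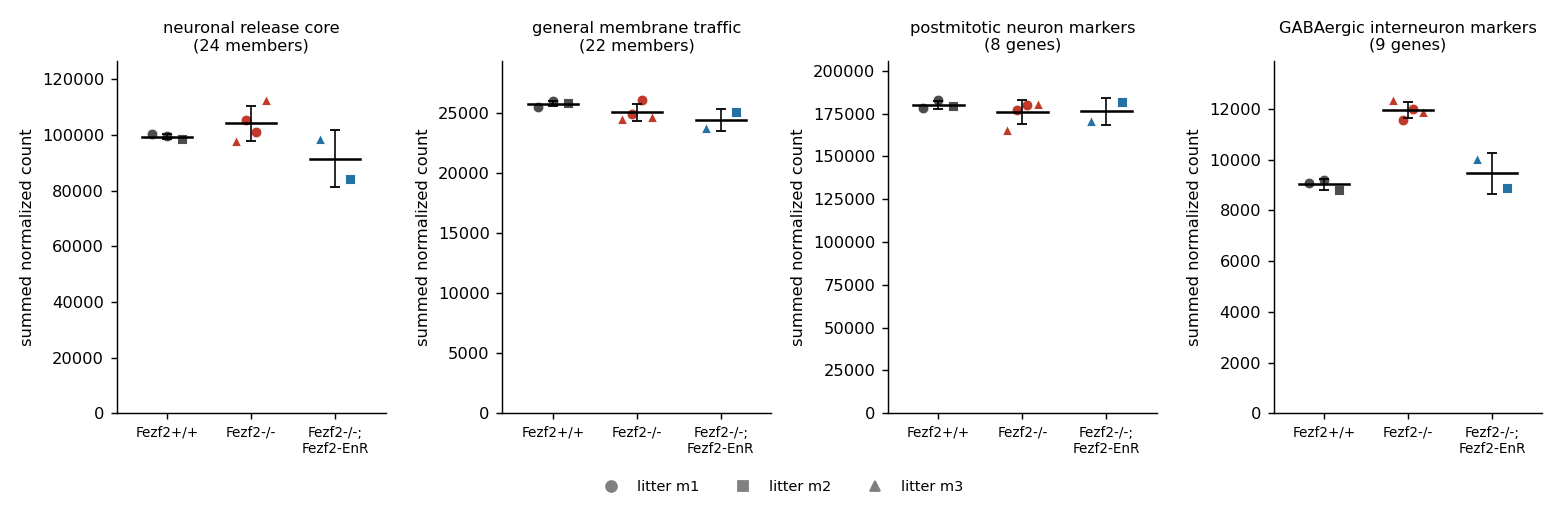
Summed normalized counts per library of the 24 core members, the 22 members of general membrane traffic, 8 postmitotic neuron markers and 9 GABAergic interneuron markers; each point is 1 mouse, with its litter by shape, lines are means and bars SD. Library bc209 has the lowest core sum, 84132, against 97859 to 112517 in the other 8, and the 4 Fezf2-/- libraries have the highest interneuron marker sums.

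Fezf2-/-; Fezf2-EnR was compared with Fezf2-/- to ask what the repressor form changes when FEZF2 is absent. Syt6 and Unc13c were again the members called, 3.23% of those tested against 0.766% of all genes. With litter as a term Unc13c alone was called (0.543% of all genes). With edgeR both were called (0.704% of all genes), and DESeq2 called 9 members (3.08% of all genes): these and Rims2, Rims3, Stx1a, Sv2a, Sv2c, Syt4 and Syt13. At an unadjusted p under 0.05 the count was 22 (35.5%, against 16.9% of all genes), of which 19 were lower (9.06% of all genes) and 3 higher (7.87% of all genes). The groups did not overlap in 20 members (32.3%, against 24.6%), and 19 of the 62 had a positive sign (30.6%, against 50.5% of all genes), with a median log2 fold change of -0.12 against 0.00 over all genes. In the core, 20 of 24 had a negative sign and the median was -0.22, with 12 lower (9.06% of all genes) and 1 higher (7.87% of all genes) at an unadjusted p under 0.05. That median was -0.33 without bc208 and -0.125 without bc209. In general membrane traffic the median was -0.02 and 12 of 21 were negative. As this comparison and the one above share the Fezf2-/- libraries, a gene that is high there tends to be so in both.

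Much of this shift lay in 1 library. The median log2 ratio to the Fezf2+/+ mean over the core was 0.04 in bc208 and -0.23 in bc209, whereas over all genes it was -0.009 and -0.005. The core summed to 98601 in bc208, among the Fezf2-/- libraries of its own litter m3 at 97859 and 112517, and to 84132 in bc209, below the Fezf2+/+ library of its litter m2 at 98439. The general traffic members summed to 23754 in bc208 and 25059 in bc209, and so did not follow the core. Marker sums also differed between these 2 libraries. Striatal neuron markers summed to 2610 in bc208 and 1275 in bc209, against 1581 to 1798 in Fezf2+/+ and 1034 to 3611 in Fezf2-/-. In bc209 the markers of proliferating cells (4621, against 3695 in bc208) and of cortical glutamatergic neurons (55817, against 46565) had their highest sums of the 9 libraries. The part of these cells in the difference was not tested. Stx1a shows this pattern: it was at 2399 in bc208 and 1643 in bc209, against 2606 to 2796 in Fezf2-/- (log2 difference -0.45, SE 0.12, limma adjusted p = 0.127). Syt13, which does not bind calcium, was at 765 and 447, against 815 to 996 (-0.61, SE 0.17, limma adjusted p = 0.143). Rims3 was at 3232 and 2535, against 3413 to 4004 (-0.40, SE 0.10, limma adjusted p = 0.108). For Sv2c the difference was -0.54 (SE 0.15, limma adjusted p = 0.150) and for Sv2a -0.27 (SE 0.08, limma adjusted p = 0.141), with both libraries below all those of Fezf2-/-. In the other direction, Rims2 was at 1268 and 1743 against 975 to 1197 (0.45, SE 0.13, limma adjusted p = 0.157) and Syt4 was at 13705 and 17824 against 11922 to 13799 (0.33, SE 0.10, limma adjusted p = 0.158). Without bc208, 14 members were called (22.6%, against 6.72% of all genes), and the fit then rests on bc209 alone with its spread taken from the other groups. Without bc209 none was called (0.13% of all genes). Syt6 and Unc13c were called together with bc208 left out (adjusted p = 0.0422 and 0.00504), and neither was with bc209 left out (adjusted p = 0.382 and 0.310) or with sex as a term (1.05, adjusted p = 0.882, and -1.45, adjusted p = 0.667). In these fits limma gave the p-values. With sex as a term 0.0679% of all genes were called.

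**Figure D5:**
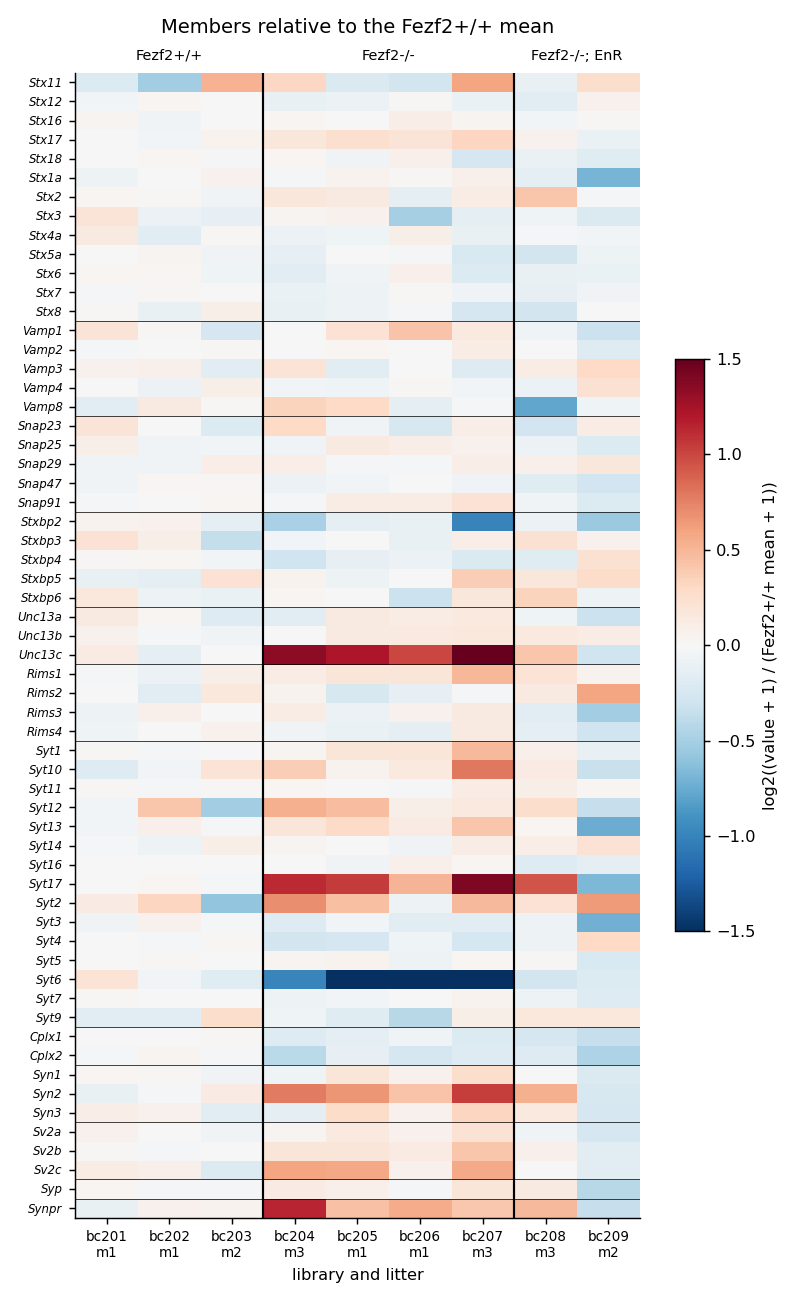
Log2 ratio of (value + 1) to the Fezf2+/+ mean + 1 for members tested (rows, by family) in the 9 libraries (columns, with litter); red is above and blue below that mean, and colours saturate at 1.5 in either direction. Syt6 is blue and Unc13c red in all 4 Fezf2-/- libraries, and bc209 is the lowest of the 9 libraries in 29 members.

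Fezf2-/-; Fezf2-EnR was compared with Fezf2+/+ to ask how far the 2 genotypes differ. No member was called with limma (0.117% of all genes) or edgeR (0.0926% of all genes), and 3 were with DESeq2 (Cplx1, Cplx2 and Snap47; 5.58% of all genes). With limma 9 reached an unadjusted p under 0.05 (14.5%, against 19.3% of all genes), 8 of them lower (8.72% of all genes) and 1 higher (10.5% of all genes). A positive sign was found in 22 of 62 (35.5%, against 49.1% of all genes). The groups did not overlap in 22 members (35.5%, against 34.6% of all genes), a share near that of all genes, and the median log2 fold change was -0.085 against -0.005. Cplx1, at 3031 and 2835 against 3572 to 3637, had the smallest p, with a log2 difference of -0.30 (SE 0.07, limma adjusted p = 0.107; range over the alternatives 0.00523 to 0.545). Snap47 followed, at 4586 and 4270 against 5006 to 5321 (-0.23, SE 0.06, limma adjusted p = 0.127), and then Cplx2 with -0.33 (SE 0.09, limma adjusted p = 0.141). Snap47 shares 11.6% of its exon bases with Jmjd4, which is on the other strand and reached 1052. Stx1a gave -0.42 (SE 0.13, limma adjusted p = 0.148) and Rims3 -0.34 (SE 0.11, limma adjusted p = 0.152). The SEs take their spread from all 3 genotypes, with only 2 Fezf2-/-; Fezf2-EnR mice. A missed threshold does not show equal levels.

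Other genes of the release cycle outside the symbol families were taken from 3 lists. Of 28 docking, priming and active zone genes tested, Cplx3 alone was called in Fezf2-/- against Fezf2+/+ (log2 fold change -2.99, SE 0.29, limma adjusted p = 0.00059). In that comparison 0.858% of all genes were called. A positive sign was found in 19 of the 28 (50% of all genes), and the median was 0.06. In Fezf2-/-; Fezf2-EnR against Fezf2-/-, Cplx3 rose by 2.60 (SE 0.33, limma adjusted p = 0.00564), Rab3c, a small GTPase of vesicles, rose by 0.38 (SE 0.07, limma adjusted p = 0.0385), and Cadps2, a priming factor for dense-core vesicles, fell by 0.80 on the log2 scale (SE 0.12, limma adjusted p = 0.0115), with a list median of -0.15. There 0.766% of all genes were called. Cadps2 was at 678, 726 and 649 in Fezf2+/+, 820, 946, 863 and 1086 in Fezf2-/-, and 572 and 491 in Fezf2-/-; Fezf2-EnR. Among 18 vesicle proteins and transporters that load transmitter, Slc17a6, the vesicular glutamate transporter VGLUT2, rose in Fezf2-/- against Fezf2+/+ by 0.59 (SE 0.11, limma adjusted p = 0.0367). It was at 676, 673 and 784, then at 1008, 1025, 975 and 1296, and at 926 and 773 in Fezf2-/-; Fezf2-EnR, the second of these within the Fezf2+/+ range. The median of that list was 0.07, and in Fezf2-/-; Fezf2-EnR against Fezf2-/- it was -0.30. There 17 of 18 were negative, against 8013 of all 16197 genes tested, and none was called. Of 21 vesicle recycling genes none was called in either comparison (0.858% and 0.766% of all genes), with medians of -0.01 and -0.09.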

How the data were processed

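Poly(A) RNA of 9 P0 cortices was sequenced; the submitters' labels name a NovaSeq and the study's methods a HiSeq 2000. The deposited values are a signal: reads per gene that the authors divided by a size factor for each library (DESeq). The submitters' processing notes name mm10, Bowtie, STAR and DESeq; the counting tool, annotation release and use of strand are not given in the sources used here, so reads of overlapping antisense genes cannot be told apart. The study's methods count 4 Fezf2+/+ mice, whereas its RNA-seq figure legend gives 3, the number analysed here. Dividing by what 1 read is worth gave whole reads for 100.0% of values in each library, to the rounding of the file; in bc204 and bc208 a read is worth close to 1, which makes this less certain.

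Values were analysed as log2(value + 1) for genes with a mean of at least 10, in limma 3.58.1 (R 4.3.3; 1 coefficient per genotype, all 9 libraries, trended prior), with Benjamini-Hochberg adjustment over 16197 genes and a threshold of 0.05. The same design was fitted to recovered reads with edgeR 4.0.16 (quasi-likelihood) and DESeq2 1.42.0, and the scripts were tested on simulated data. Single genes were also tested by exact permutation (SciPy 1.17.1). Alternatives were pseudocounts of 0.1 and 10, no filter or a mean of at least 50, another scaling (TMM or median ratio), a fit of the 2 groups alone, a term for litter, litter m1 by itself, and each library left out; sex as a term was added after seeing the data.

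Named with values are members called in any comparison, the 5 with the smallest p in each, the release core and the highest member of each family, plus Fezf2 and Cplx3; Syt13, Syt17, Stxbp2, Stxbp4 and the other non-members named were chosen after their values were seen. A pair of members is counted but not reported here by name or plotted singly. The members and lists were chosen with earlier results of these data known. Exon lengths and overlaps come from GENCODE M21, in which all 64 member IDs were found, and promoter windows from RefSeq (GRCm38.p6). P-values measure the spread between mice, which limma shares over the genotypes and draws towards a trend over all genes. The main fit takes no account of shared litters.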

Additional observations from a re-analysis of the deposited data

Results flagged for a closer look

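In the Fezf2-/- group of 4, the 34 members named with values or followed through the alternatives were checked for a library far from the other 3 by Dixon's test, which chance flags in about 1 of 20 groups, and 4 stood out. Sv2c was at 510.8 in bc206, against 728 to 735 in the other 3. Syt4 was at 13799 in bc206, against 11922 to 12113. Synpr was at 1268 in bc204, against 760 to 847. Unc13a was at 3879 in bc204, against 4678 to 4806. Library bc204 also had the highest summed level of striatal neuron markers, 3611, where the other Fezf2-/- libraries had 1034 to 1437 and bc208 had 2610; its part in these values was not tested.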

How the results depend on the processing

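In Fezf2-/- against Fezf2+/+, Syt6 and Unc13c were called under each of the 21 alternatives run on single genes, with log2 fold changes of -1.80 to -1.40 and 1.05 to 1.42. For this comparison, counts of members called are given with the share of all genes called in the same fit. In that comparison 4 members were called with only the 2 groups compared (Syn2 and Syt17 added, 1.36%). There were 4 in litter m1 alone (Syn2 and Synpr added, 1.44%) and 5 with DESeq2 (all 3 added, 1.95%). At unadjusted p there were 13 (10.8%). Without 1 library of these 2 groups the count was 2 (0.407% to 0.617%), or 3, with Sv2c, without bc206 (0.537%). The median of 0.036 there was 0.002 with litter as a term, 0.017 in m1 alone, and 0.015 (without bc207) to 0.049 (without bc206) with a library left out. In Fezf2-/-; Fezf2-EnR against Fezf2-/- the count was 0 with only the 2 groups compared (Syt6 adjusted p = 0.0938, Unc13c 0.0664, limma), 1 with litter as a term (Unc13c; Syt6 adjusted p = 0.0819), 9 with DESeq2, 0 with sex as a term, 22 at unadjusted p, and 0 to 14 with a library left out: 14 without bc208, 1 without bc201 or bc202 (Unc13c) or bc204 (Syt6), 2 without bc206 (Unc13c and Sv2c, with Syt6 lost), and 0 without bc205 or bc209. Of all genes, 0.414% were called there with only the 2 groups, 0.543% with a litter term, 3.08% with DESeq2 and 0.0679% with a sex term. At unadjusted p the share was 16.9%, and without 1 of bc201 to bc207 it was 0.303% to 0.716%. Leaving out bc208 or bc209 leaves 1 Fezf2-/-; Fezf2-EnR library. The median in that comparison moved from -0.12 to between -0.181 (without bc208) and -0.076 (without bc209). In Fezf2-/-; Fezf2-EnR against Fezf2+/+ the count was 3 with DESeq2, 9 at unadjusted p and 0 to 7 with a library left out (7 without bc208), and the median -0.162 (without bc208) to -0.033 (without bc209). The sign of Unc13c in that comparison turned to -0.165 with litter as a term and -0.064 with sex as a term, and lay between -0.292 (without bc208) and 0.419 (without bc209) with a library left out, negative also without bc202 (-0.006). In Fezf2-/-; Fezf2-EnR against Fezf2+/+, 5.58% of all genes were called with DESeq2 and 19.3% reached an unadjusted p under 0.05. DESeq2 called 315, 450 and 641 genes in the 3 comparisons, limma 139, 124 and 19, and edgeR 142, 114 and 15. Under the other alternatives, apart from the counts without bc208 or bc209, counts stayed within 1.5 times and medians moved by less than the SD between libraries. The causes were not tested. Litter, as the labels give it, was the block used; the libraries share no replicate numbers. With 2 Fezf2-/-; Fezf2-EnR mice, single calls in their comparisons rest on each library.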
